A study of Mus musculus with 3 samples.

Results

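Intergenic long noncoding RNAs (lincRNAs) and antisense long noncoding RNAs were compared in RNA that came down with Mettl3 or Zfp217 from nuclei of mouse embryonic stem cells. The members were all transcripts that the authors' tables class as lincRNA or antisense, except those of Tug1, Neat1, Malat1, Meg3, Rian, Tsix and Gas5. They numbered 294 of the 13595 transcripts listed, of which 155 were lincRNA transcripts of 148 gene symbols and 139 were antisense transcripts of 130 symbols. The cells were CCE, a single line of mouse embryonic stem cells, untreated and grown on gelatin without feeder cells and with LIF, the cytokine that keeps such cells undifferentiated. Antibodies against Mettl3 (Bethyl) or Zfp217 (Santa Cruz) were added to nuclear lysate, complexes were collected on protein G magnetic beads, and the RNA was sequenced after TruSeq library preparation (RNA immunoprecipitation, RIP). The 3 libraries (the input and 1 RIP per antibody) have no replicates, so no value has a replicate error and no test was made. Every comparison is between libraries. A control precipitation with another antibody is not analysed here.

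Each table gives, for 1 RIP, the FPKM of the RIP and of the input, a level corrected for transcript length and for the size of the library. Both tables are selections: no RIP value was under 1 FPKM and no ratio of RIP to input under 1.5, so every member was higher in the RIP by construction and an unlisted transcript has no value here. The tables share the 1 input library. FPKM is a share of its library, and fewer cells that make an RNA cannot be told apart from less RNA per cell. The estimated depth was 9880000 fragments for the Mettl3 RIP, 7080000 for the Zfp217 RIP and 6100000 to 6200000 for the input, and 1 fragment on a transcript of 1000 bases was worth 0.118, 0.164 and 0.189 to 0.192 FPKM. Of 8 embryonic stem cell markers, 5 were listed (Pou5f1, Nanog, Sox2, Klf4 and Esrrb), with highest inputs from 0.00299 to 42.7 FPKM. The tables listed 2 of 6 fibroblast markers, Vim and Fn1, and 0 of 5 endoderm and neural markers. The highest input was 1.48 FPKM for 1 of these 2 fibroblast markers and 6.11 FPKM for the other.

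Long noncoding RNAs are spliced or unspliced transcripts with no long reading frame. A lincRNA lies between protein-coding genes, while an antisense RNA is read from the strand opposite to another gene and can share exon sequence with it in reverse. Mettl3 is the catalytic subunit of the complex that writes N6-methyladenosine (m6A) on RNA, most often at an A within the consensus GGACT or a close relative of it, while Zfp217, with zinc fingers, belongs to chromatin repressor complexes. Stem cells express many lincRNAs that fall silent on differentiation, the Platr (pluripotency-associated transcript) genes among them.

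Windows of 5 members are shown because these transcripts hold the pentamer GGACT. They also stood among the highest levels, or among the highest ratios with both values at least 1 FPKM, or were listed for both RIPs. Sequences are the RNA-sense strand in GRCm38 with the GENCODE M21 exons, 5′ to 3′, and capitals mark GGACT. The first is from exon 2 of Lncenc1 (listed as Gm11019), chr13:97495124-97495213 on the plus strand. The second is from exon 3 of Platr15 (Gm14136), chr2:150704869-150704958 on the minus strand. The third is from exon 1 of Platr28 (Gm15514), chr7:107243039-107243128 on the plus strand. The antisense windows are from exon 2 of Gm17344, chr8:109861937-109861966 on the minus strand, and from the single exon of Gm16536, chr9:45857459-45857548 on the minus strand.
Lncenc1: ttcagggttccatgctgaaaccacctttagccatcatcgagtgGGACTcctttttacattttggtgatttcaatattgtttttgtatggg
Platr15: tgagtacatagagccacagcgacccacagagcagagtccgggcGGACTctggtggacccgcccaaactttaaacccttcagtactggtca
Platr28: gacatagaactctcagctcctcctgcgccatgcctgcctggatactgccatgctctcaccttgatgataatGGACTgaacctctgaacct
Gm17344: tcttgctcttacaGGACTattaagaccaga
Gm16536: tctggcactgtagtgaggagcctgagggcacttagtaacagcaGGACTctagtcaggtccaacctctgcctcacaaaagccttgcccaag

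GGACT was searched on the RNA strand only, over whole spliced transcripts. Platr15 held it 2 times in 768 bases, and the other 4 transcripts shown held it once. It was present in 70.2% of the 47 lincRNA members whose transcript is in the reference and in 58.0% of the 131 such antisense members. The shares over all reference transcripts of these types were 64.2% of 9101 lincRNAs and 65.1% of 4511 antisense RNAs. Per kilobase of pooled sequence, the lincRNA members held 1.17 copies and the antisense members 1.09, beside 1.16 and 1.15 over all reference transcripts of these types and 1.02 and 1.09 over all transcripts listed for Mettl3 and Zfp217. The density of this pentamer in the members was thus close to that of their class. A match is a string of letters, not a methylated site.

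Of the long noncoding RNAs named by a list of known genes, Lncenc1 and Platr15 stood far above the rest in the Mettl3 RIP. Lncenc1, a nuclear RNA of naive stem cells, was at 82.1 FPKM in the Mettl3 RIP and 21.4 FPKM in the input, a 3.84-fold ratio resting on about 2096 and 342 fragments. Its gene has 3 annotated transcripts, so the division of fragments among them is an estimate. Platr15 was at 39.8 FPKM against 11.7 FPKM in the input, a ratio of 3.41 (95% counting interval from 2.47 to 4.79, which covers counting error only, as do all intervals here). Neither was listed for Zfp217, so neither has a Zfp217 value. The listed set held 8 Platr transcripts, while the reference has 30 Platr gene names. Of these 8, there were 7 listed for Mettl3, 3 for Zfp217 and 2 for both. Over all 13595 transcripts, 9501 were listed for Mettl3, 8120 for Zfp217 and 4026 (29.6%) for both. The Mettl3 RIP was the deeper library, and 8 transcripts are few for a comparison of shares.

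Both Platr transcripts listed for the 2 RIPs had their higher value with the Mettl3 antibody. Platr7 was at 5.18 FPKM in the Mettl3 RIP, 3.66 in the Zfp217 RIP and 1.63 in the input. Platr28 was at 2.99 FPKM in the Mettl3 RIP, 2.20 in the Zfp217 RIP and 0.983 in the input. The Platr28 ratio was 3.04 for Mettl3 (interval 1.33 to 8.12) and 2.21 for Zfp217 (0.880 to 6.25). These intervals overlap, and both ratios divide by the same input value of about 6.99 fragments. Of those listed for Mettl3 alone, Platr4 was at 8.40 FPKM against 5.19 in the input, Platr22 at 3.26 against 0.919, and Platr25 at 2.78 against 1.23. The transcript of Platr25 is annotated as protein-coding in the reference.

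Platr3 and Platr20 were each listed with the input at 0 FPKM. Platr3 was at 3.0 FPKM in the Mettl3 RIP, which is about 7.99 fragments on 412 bases. Platr20 was at 1.22 FPKM in the Zfp217 RIP, about 2.35 fragments. No fold is given for either.

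The other known genes have roles outside the Platr set. Mir124a-1hg, the host transcript of a neuronal microRNA, was at 2.19 FPKM in the Mettl3 RIP, 3.18 in the Zfp217 RIP and 0.556 in the input. Tunar, a conserved lincRNA of stem cells and the nervous system, was listed for Zfp217 only, at 1.03 FPKM against 0.119. Snhg1, which hosts small nucleolar RNAs in its introns, was listed for Zfp217 only, at 8.42 FPKM against 4.44. Snhg9, another such host that the tables class as antisense, was listed for Mettl3 only, at 2.18 FPKM against 0, on an annotated length of 183 bases. Mirg, which hosts microRNAs of an imprinted domain, was at 1.95 FPKM in the Mettl3 RIP and 1.19 in the input. Nespas, the imprinted antisense RNA of the Gnas locus, was at 5.22 FPKM in the Mettl3 RIP and 2.70 in the input. The tables listed 15 of these fixed transcripts, 12 for Mettl3, 6 for Zfp217 and 3 for both. The same counts over all 13595 transcripts were 9501, 8120 and 4026.

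**Figure D1:**
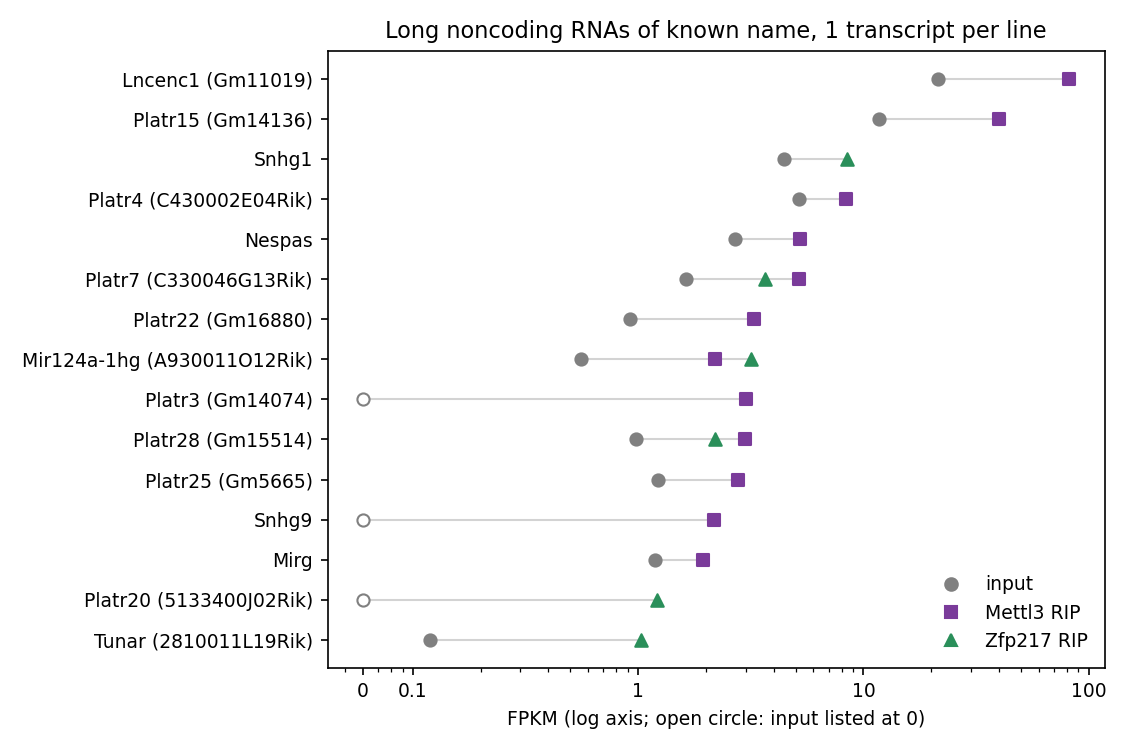
FPKM (log axis) in the input, the Mettl3 RIP and the Zfp217 RIP for the 15 listed transcripts of known genes, 1 line per transcript and 1 library per symbol shape; an open circle at the left stands for an input listed at 0 FPKM, and a missing RIP symbol means that the transcript was not in that table. Lncenc1 (82.1 FPKM) and Platr15 (39.8 FPKM) lie furthest right, and Mir124a-1hg is the 1 transcript of the 3 with both RIP symbols whose Zfp217 value is the higher.

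A larger share of lincRNAs than of antisense RNAs was listed for both RIPs. Of 155 lincRNA transcripts, 67 were listed for Mettl3 alone, 27 for Zfp217 alone and 61 for both (39.4%). Of 139 antisense transcripts, 60 were listed for Mettl3 alone, 44 for Zfp217 alone and 35 for both (25.2%). Over all 13595 transcripts the share in both was 29.6%. It was 24.1% for transcripts classed as retained introns and 22.7% for processed transcripts, so the antisense share was near theirs. The 61 shared lincRNAs were 47.7% of the lincRNAs listed for Mettl3 and 69.3% of those listed for Zfp217, while the 35 shared antisense RNAs were 36.8% and 44.3%. The same shares over whole tables were 42.4% and 49.6%. Both tables divide by the same input library, so the 2 listings are not independent.

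Levels also differed between the classes. The median Mettl3 RIP level was 2.42 FPKM for the 128 lincRNAs listed (quartiles 1.49 and 4.72) and 1.67 FPKM for the 95 antisense RNAs (1.26 and 3.04), beside 2.66 over the table. In the Zfp217 RIP the medians were 1.96 FPKM for 88 lincRNAs and 1.51 for 79 antisense RNAs, beside 2.25. The input differed more: its median was 0.871 FPKM for lincRNAs and 0.356 for antisense RNAs in the Mettl3 table, and 0.720 and 0.232 in the Zfp217 table. The quartiles of the RIP levels overlapped between the classes in both tables. Retained-intron transcripts had median RIP levels near the antisense ones, at 1.68 FPKM for Mettl3 and 1.59 for Zfp217. Processed transcripts were at 1.80 and 1.81. At 10 FPKM or more in the Mettl3 RIP stood 14 lincRNAs (10.9%) and 7 antisense RNAs (7.37%), beside 14% of the table. In the Zfp217 RIP it was 3 (3.41%) and 2 (2.53%), beside 8.55%.

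Among transcripts listed for both RIPs, the 2 RIP values differed little at the median. All of these were at least 1 FPKM and 1.5-fold over the same input in both RIPs. Transcripts listed for 1 RIP alone, Lncenc1 among them, are left out, so the largest differences may not be covered. The Mettl3 RIP value divided by the Zfp217 RIP value had a median of 1.16 over the 61 lincRNAs, with 38 of them higher in the Mettl3 RIP. Over the 35 antisense RNAs the median was 1.05, with 20 higher in the Mettl3 RIP. All 4026 shared transcripts had a median of 1.07, and 56.3% were higher in the Mettl3 RIP. Single transcripts varied more: within 1.5-fold lay 40 of the 61 lincRNAs, 26 of the 35 antisense RNAs and 2531 of all 4026. The Mettl3 RIP was at least 2-fold above the Zfp217 RIP for 6, 3 and 399 of them, and at least 2-fold below it for 0, 0 and 269. Furthest apart among lincRNAs with all values at least 1 FPKM was Gm17500, at 6.58 FPKM in the Mettl3 RIP, 2.47 in the Zfp217 RIP and 1.59 in the input. Gm17591 was at 15.9, 6.42 and 2.91 FPKM, and Gm16929 at 4.38, 2.42 and 1.13 FPKM, in the same order. In the other direction Gm17504 was at 9.18 FPKM in the Mettl3 RIP, 11.8 in the Zfp217 RIP and 4.69 in the input.

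The input was listed at 0 FPKM far more often for antisense RNAs than for lincRNAs. In the Mettl3 table this held for 11 of 128 lincRNAs (8.59%) and 37 of 95 antisense RNAs (38.9%), beside 31.4% of the whole table. In the Zfp217 table it held for 11 of 88 lincRNAs (12.5%) and 36 of 79 antisense RNAs (45.6%), beside 38.9%. Antisense RNAs were thus near the level of each table, and lincRNAs were below it, before annotated length is considered (below). An exact 0 in such tables can be a failed estimate, so it is given as listed, not as absence.

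Among lincRNAs the share was lower where the transcript identifier is not in the reference, which leaves no length to compare. Those were 88 of the 128 lincRNAs in the Mettl3 table, with 5 at an input of 0 (5.68%), and 66 of 88 in the Zfp217 table, with 4 at 0 (6.06%). Among lincRNAs with a reference transcript, 6 of 40 (15.0%) and 7 of 22 (31.8%) were at 0, beside 37 of 92 (40.2%) and 32 of 74 (43.2%) antisense RNAs. Over all listed transcripts the shares were 31.4% and 39.6% with a reference transcript, and 31.1% and 33.5% without. In genes with 1 annotated transcript, where the reference has no other isoform to take fragments, 5 of 11 lincRNAs listed for Zfp217 were at 0 (45.5%) beside 19 of 46 antisense RNAs (41.3%), so there the antisense share was not the higher. For Mettl3 it was 3 of 17 (17.6%) beside 17 of 54 (31.5%).

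Zero inputs went with short annotated length in both classes. In the Mettl3 table, antisense RNAs were at 0 in 16 of 31 transcripts of 300 to under 600 bases, 13 of 25 of 600 to under 1000 bases and 4 of 32 of 1000 bases or more. For lincRNAs these counts were 4 of 8, 1 of 9 and 0 of 22. In the Zfp217 table the antisense counts were 16 of 28, 9 of 22 and 1 of 18, and the lincRNA counts 4 of 5, 1 of 5 and 0 of 10. Over all listed transcripts the shares fell likewise, from 71.7% through 51.1% to 18.4% for Mettl3 and from 69.3% through 54.1% to 24.6% for Zfp217. At 600 to under 1000 bases for Mettl3 the antisense share was 52%, beside 51.1%. In the other bands given here it was below the share of all transcripts. Of antisense RNAs of 1000 bases or more in genes with 1 transcript, 0 of 16 (Mettl3) and 0 of 14 (Zfp217) had an input of 0. The lincRNA counts were 0 of 7 and 0 of 4. Over all listed transcripts of that kind the share was also low, at 13 of 428 (3.04%) and 15 of 263 (5.70%).

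**Figure D2:**
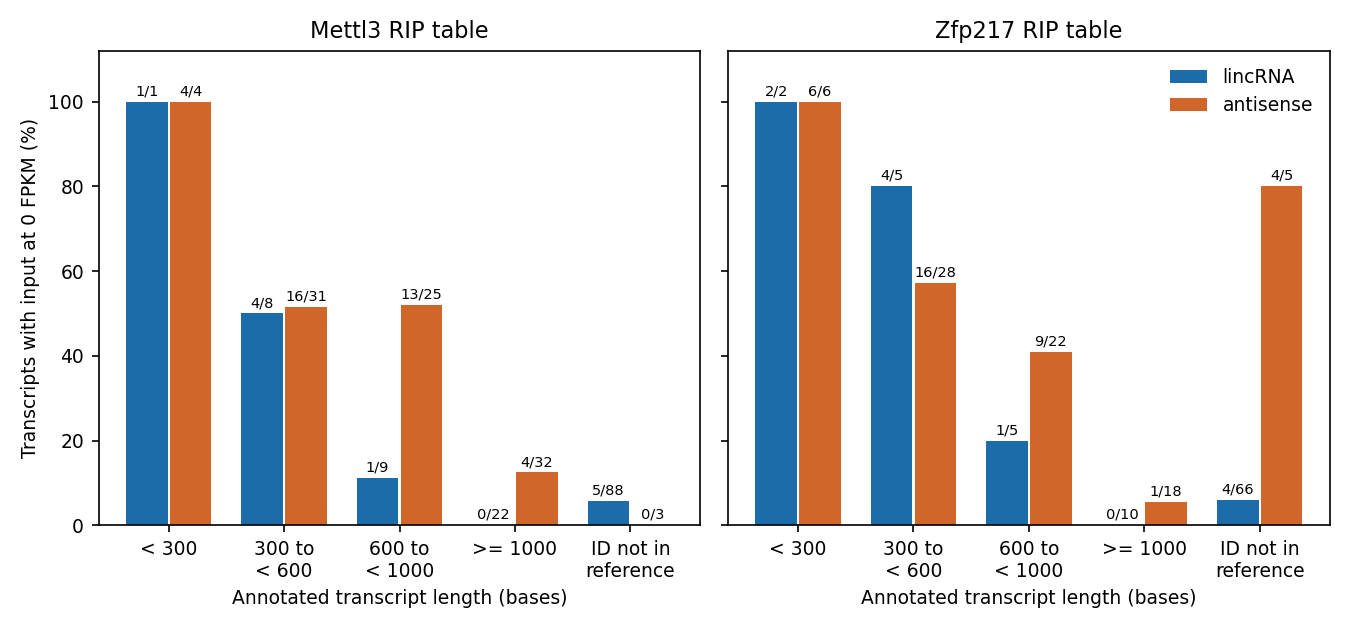
Share of lincRNA (blue) and antisense (orange) transcripts whose input was listed at 0 FPKM, by annotated length in bases, with the transcripts whose identifier is not in the reference at the right of each panel; each bar carries its count at 0 and the count in its band. At 1000 bases or more the share was 4 of 32 (Mettl3) and 1 of 18 (Zfp217) for antisense RNAs and 0 of 22 and 0 of 10 for lincRNAs.

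Few fragments lay behind many antisense values. In the Mettl3 RIP, 41 of 88 antisense RNAs (46.6%) with a length of at least 300 bases rested on under 10 estimated fragments, beside 8 of 39 lincRNAs and 16.1% of all transcripts. In the Zfp217 RIP it was 46 of 68 (67.6%), beside 9 of 20 and 28.4%. Such shares were not particular to antisense RNAs. They were 38.1% of retained-intron and 45.6% of processed transcripts, 2 other classes of the tables, for Mettl3. For Zfp217 they were 55.3% and 62.4%. The antisense RNA Gm12981, listed with the input at 0, was at 3.17 FPKM in the Mettl3 RIP, about 15.0 fragments, and 1.46 FPKM in the Zfp217 RIP, about 4.99 fragments. Gm13150, the lincRNA with the highest RIP level at an input of 0, was at 4.55 FPKM in the Mettl3 RIP and 6.97 in the Zfp217 RIP on a transcript of 309 bases, and the reference now places it in Zfp989, a zinc finger gene.

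Against the input, the share of members at least 2-fold higher was near or below the background under the rule used for counts. The rule was a log2((RIP + 1)/(input + 1)) of at least 1 among transcripts with a mean of at least 1 FPKM, and it was met by 51.1% of transcripts listed for Mettl3 and 49.1% of those listed for Zfp217. For Mettl3 it was met by 42 of 95 lincRNAs (44.2%) and 23 of 43 antisense RNAs (53.5%), with medians of 0.90 and 1.08 beside 1.02 over the table. For Zfp217 it was met by 22 of 65 lincRNAs (33.8%) and 18 of 34 antisense RNAs (52.9%), with medians of 0.72 and 1.02 beside 0.98. With an input near 0, a transcript that passes the filter also passes the rule. Without inputs under 0.01 FPKM, the rule was met for Mettl3 by 38 of 91 lincRNAs (41.8%) and 15 of 35 antisense RNAs (42.9%), beside 37.6% of the table. For Zfp217 it was then met by 16 of 59 (27.1%) and 8 of 24 (33.3%), beside 28.4%. Where RIP and input were both at 1 FPKM or more, a plain ratio of at least 2 was reached by 32 of 55 lincRNAs (58.2%) and 9 of 21 antisense RNAs (42.9%) for Mettl3, beside 54.3%. For Zfp217 it was 9 of 30 (30%) and 8 of 12 (66.7%), beside 39.3%. The order of the classes for Mettl3 thus turned with the way low inputs were treated.

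**Figure D3:**
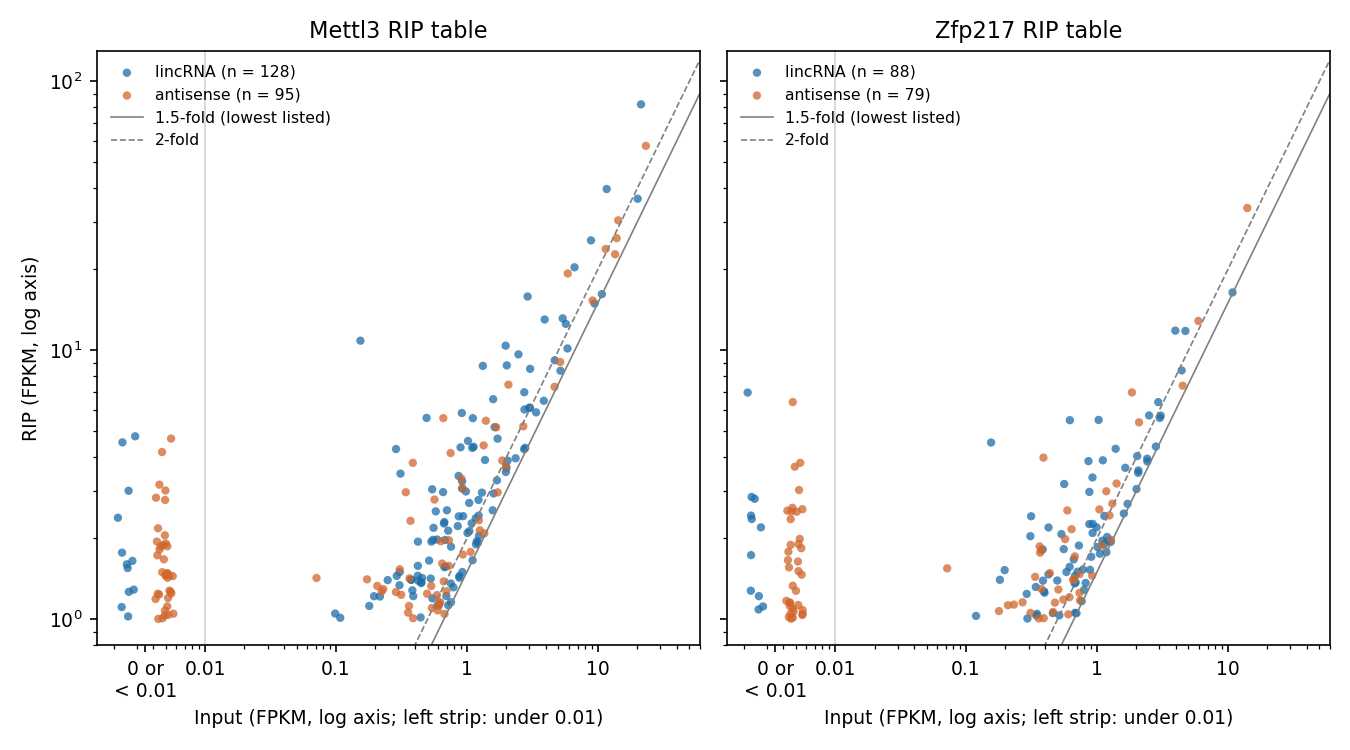
RIP level against input level (FPKM, log axes) of each lincRNA (blue) and antisense (orange) transcript, 1 point per transcript; points in the strip left of 0.01 FPKM have an input of 0 or under 0.01 and are spread sideways for legibility. All points lie on or above the line of the lowest listed ratio, 1.5, and the strip holds more antisense than lincRNA points in both panels.

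Among lincRNAs with both values at least 1 FPKM, Gm17477, whose reference type is antisense, had the highest Mettl3 ratio, at 8.75 FPKM against 1.32 in the input, 6.62-fold (interval 4.17 to 11.0), and 108 of its 2581 bases lie opposite exons of Senp6, a SUMO protease. Gm17591 followed at 15.9 against 2.91 FPKM (5.45-fold). The transcripts listed as Wnk3-ps, 10.4 against 1.97 FPKM and 5.59 against 1.11, belong in the reference to Wnk3, a kinase gene on the same strand. Outside the both-at-least-1 limit, and chosen after its values were seen, Gm16707 was at 10.9 FPKM in the Mettl3 RIP, 4.54 in the Zfp217 RIP and 0.154 in the input.

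For Zfp217, 4930461G14Rik had the highest ratio of the lincRNAs with both values at least 1 FPKM. It was at 5.51 FPKM against 1.03 in the input (5.35-fold), and at 4.60 FPKM in the Mettl3 RIP (4.52-fold). Of the lincRNAs listed for both RIPs with all values at least 1 FPKM, it had the highest smaller ratio. Outside this limit some lincRNA ratios were higher in both tables. C330002G04Rik was at 4.34 FPKM in the Mettl3 RIP, 3.90 in the Zfp217 RIP and 1.10 in the input. Gm16728 was at 13.0, 11.8 and 3.93 FPKM in the same order. A transcript of Bbip1, a subunit gene of the ciliary BBSome complex, was at 3.91, 4.31 and 1.37 FPKM, although the tables class it as lincRNA. At the lower limit, Gm17609 was at 16.2, 16.4 and 10.7 FPKM, 1.51-fold in both tables.

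Among antisense RNAs with both values at least 1 FPKM, Gm12207 had the highest Mettl3 ratio. It was at 5.47 FPKM in the Mettl3 RIP, 3.20 in the Zfp217 RIP and 1.4 in the input. Its ratio of 3.92 has a wide interval (1.16 to 20.7), since the input held about 3.0 fragments. Gm16536 rested on more, at 5.18 against 1.68 FPKM, 3.09-fold (1.76 to 5.79). It has 135 bases opposite exons of Bace1, the beta-secretase gene. Pisd-ps1 was at 7.45 FPKM in the Mettl3 RIP, 5.40 in the Zfp217 RIP and 2.07 in the input. As a pseudogene copy of a phosphatidylserine decarboxylase gene it may share reads with its parent, so its values are uncertain. Within the same limit, Gm17104 had the highest Zfp217 ratio, at 6.97 against 1.85 FPKM (3.77-fold). Outside this limit some antisense ratios were higher in both tables.

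The most abundant antisense RNAs lay opposite exons of coding genes. Of 131 antisense transcripts in the reference, 69 share exon bases with a coding gene on the other strand. A further 40 overlap only introns of such a gene, and 22 overlap no coding gene on that strand. Of 47 lincRNAs, 38 overlap no coding gene on the other strand. Coding genes on the same strand do not enter these counts, so the Wnk3 transcripts are among the 38. In the Mettl3 table, the 13 antisense RNAs with at least 80% of their bases in such exons had a median RIP level of 5.22 FPKM, and 5 of them reached 10 FPKM. The 39 that share less had a median of 1.74 and 1 at 10 FPKM, and the 40 that share no exon had 1.46 and 0. In the Zfp217 table the medians were 2.15, 1.48 and 1.33 FPKM over 6, 31 and 37 transcripts. An input of 0 was listed for 4, 16 and 17 transcripts of these groups for Mettl3 and 4, 10 and 18 for Zfp217. The groups of at least 80% thus mix abundant transcripts with some whose input was at 0. The limit of 80% was not set in advance.

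The antisense RNA with the highest level, Gm11583, was at 57.6 FPKM in the Mettl3 RIP and 23.3 in the input, and all 466 of its bases lie in untranslated exon sequence of Kpnb1, the importin beta gene. Gm17134 lies whole, over 437 bases, opposite untranslated exon sequence of Ptbp1, a splicing regulator, at 26.1 FPKM in the Mettl3 RIP, 33.8 in the Zfp217 RIP and 13.9 in the input. Gm17344 has 86.2% of its 1159 bases opposite exons of Ap1g1, a clathrin adaptor subunit, at 19.3, 12.9 and 5.89 FPKM. The same held for Gm17122 opposite Coro1c, an actin-binding coronin, at 23.8 against 11.5 FPKM. Of the opposite genes named here, Kpnb1 had no transcript listed for Mettl3 and 1 for Zfp217. Ptbp1 had 3 listed for Mettl3 and 4 for Zfp217, Ap1g1 had 1 and 3, and Coro1c had 2 for Mettl3. The highest of Ptbp1 was at 26.2 FPKM in the Mettl3 RIP and 15.6 in the input, beside 26.1 and 13.9 for Gm17134. The counting is not stated to use strand, and without strand the reads of an antisense RNA and of the exons opposite it cannot be told apart. Spcs3, also listed as antisense and above 10 FPKM (30.4 against 14.3), is a coding transcript of a signal peptidase subunit in the reference, and Gm15648 (22.8 against 13.5) has no reference match.

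**Figure D4:**
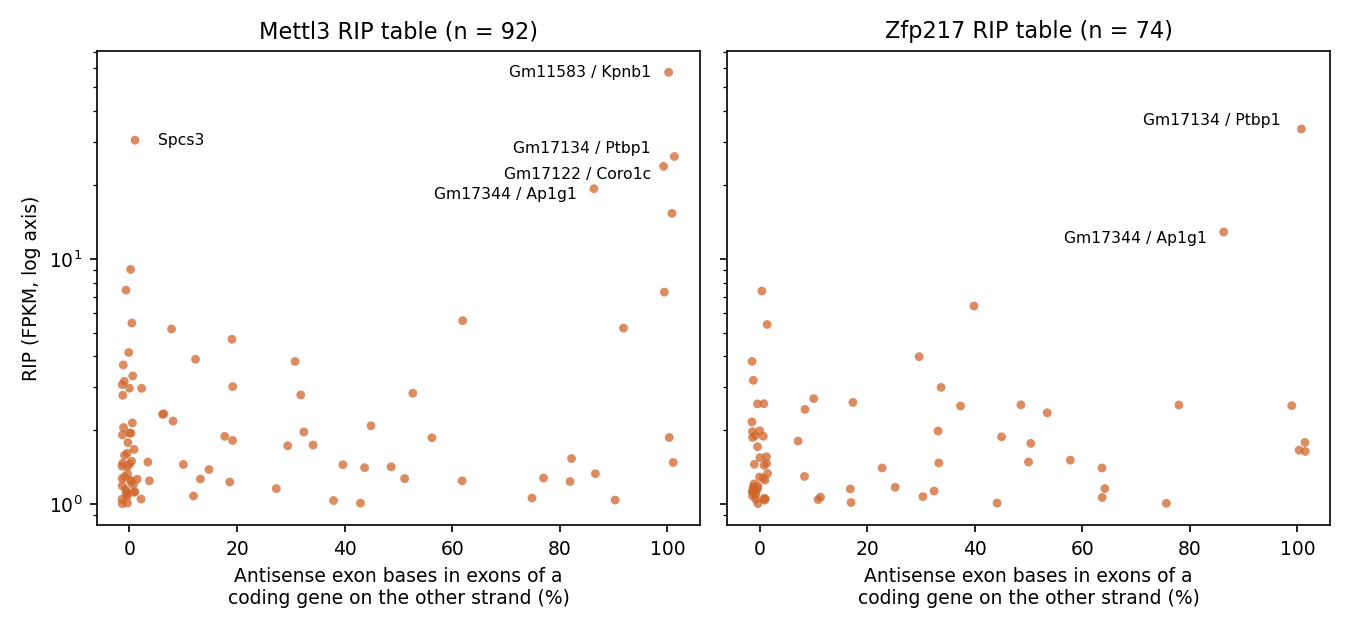
RIP level (FPKM, log axis) of each antisense transcript in the reference against the percent of its bases that lie in exons of a coding gene on the other strand, 1 panel per table, 1 point per transcript, with points spread slightly sideways; labels give the transcript and the opposite gene for those at 10 FPKM or more that are named in the text. Of the 6 points at 10 FPKM or more for Mettl3, 5 lie at 80% or more, and the other is Spcs3.

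The coding genes opposite antisense RNAs were often listed themselves, counted by transcript identifiers in the reference. For Mettl3 the opposite gene was listed for 28 of 52 antisense RNAs that share exons (53.8%) and 17 of 24 that overlap introns only (70.8%), beside 25.9% of all 21951 coding genes. For Zfp217 it was 17 of 37 (45.9%) and 17 of 26 (65.4%), beside 22.0%. That background includes coding genes silent in these cells, and the part of expression level in this difference was not tested.

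The class names in the tables did not always match the reference. Of 131 antisense members in the reference, 116 are of type antisense and 4 are protein-coding. Of 47 lincRNA members, 31 are of type lincRNA, 9 antisense, 5 processed transcripts and 2 protein-coding. Of the remaining lincRNAs, 38 were matched by a RefSeq symbol, 11 by an older RefSeq symbol, 3 by a GENCODE symbol and 56 by nothing, so sequence and neighbours were described for the 47 only.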

How the data were processed

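The authors deposited 2 tables of FPKM values per Ensembl transcript, 1 for each RIP beside the input, with the transcript class and their log2 fold change, which differed from the log2 ratio of the FPKM values by at most 0.00466 and was not used further. Per the submitters' processing notes, the tools were TopHat2 2.0.8, Bowtie2, CASAVA 1.4, Cuffdiff and Cufflinks, with the build mm9; in the sources used here neither their roles nor the annotation version are given. The members and lists were chosen with earlier results of these data known.

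Groups came from the sample labels. Ratios were taken within 1 table, as plain FPKM ratios for named transcripts and as log2((RIP + 1)/(input + 1)) for counts, with a pseudocount of 1 FPKM and a minimum mean of 1 FPKM. The pseudocount understates ratios of low transcripts. Lengths, exons and sequences came from GENCODE M21 on GRCm38, matched by transcript identifier, and current names from RefSeq. No coordinate was converted from mm9.

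Library depth was estimated as the fragment number and length offset (142 to 148 bases) that made FPKM values of low transcripts of single-transcript genes whole multiples of 1 fragment. Between 85.8% and 90.7% of these values were whole within 0.1, and the method was tested on simulated data. Counting intervals are 95% and were given only for genes with 1 annotated transcript.

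Named were, per table and class, the 5 highest and 3 lowest ratios where RIP and input were both at 1 FPKM or more. The 3 highest RIP levels at an input of 0 were named too. Per class, with all values at 1 FPKM or more, came the 5 highest smaller ratios and the 3 furthest apart each way between tables. A list of known long noncoding RNAs was added wherever listed. Genes spanning under 300 bases were left out of the ranked choices, and transcripts of unknown span were kept. The text gives those that carry a comparison; antisense RNAs at 10 FPKM or more were added after their values were seen. Of these, 1 is counted but not reported by name here. Alternatives were another pseudocount (0.1), other filters, 1 transcript per symbol, a minimum length and single-transcript genes. Python 3.11.15, pandas 2.3.3, numpy 2.4.6, scipy 1.17.1 and matplotlib 3.10.9 were used.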

Additional observations from a re-analysis of the deposited data

How the results depend on the processing

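With 1 library per group, no result has a replicate error, and no paired analysis was possible because each group had 1 library. Under the alternatives, 35 values stayed close to those reported and 17 moved beyond the limit set for a change (1.5-fold for counts). The 2-fold counts depended most on low values. Requiring both values to be at least 1 FPKM on the pseudocount scale gave 22 of 55 lincRNAs (40%) and 7 of 21 antisense RNAs (33.3%) for Mettl3. For Zfp217 it gave 5 of 30 (16.7%) and 3 of 12 (25%). Without a filter, antisense counts rose to 55 of 95 (57.9%) and 45 of 79 (57.0%). Without inputs under 0.01 FPKM they fell to 15 of 35 (42.9%) and 8 of 24 (33.3%), beside 37.6% and 28.4% of the tables. A minimum length of 300 bases removes transcripts with no reference length. It left 15 of 28 lincRNAs (53.6%) and 7 of 13 (53.8%), so the counts fell while the shares rose. A pseudocount of 0.1 FPKM gave 35 of 65 lincRNAs (53.8%) for Zfp217. Whole-table shares are given only for inputs under 0.01 FPKM and for single-transcript genes. At the other settings, here and below, the values show the effect of the setting and are no result about the members. The share with the input at 0 among transcripts of at least 2 FPKM in the Mettl3 RIP was 3.95% for lincRNAs and 19.4% for antisense RNAs. For lincRNAs it was 17.6% (Mettl3) and 45.5% (Zfp217) in single-transcript genes, beside 33.4% and 40.7% over all listed transcripts of such genes. At 300 bases or more the lincRNA share was 25% (Zfp217). With a RIP of at least 2 FPKM, 15.7% of antisense RNAs were in both tables. Apart from the constructions just named, the cause of these changes was not tested. Depth limits many antisense values, and a listed 0 in the input may be a low count or a failed estimate, which cannot be told apart here.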
